A study of Mus musculus with 6 samples.

Results

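The mitochondrial transcription and RNA stability machinery is described here by the mRNAs of 10 genes, TFAM, POLRMT, TFB2M, TEFM, LRPPRC, SLIRP, PNPT1, SUPV3L1, MTPAP and TWNK, all encoded in the nucleus. The 10 genes were taken by their symbols from a table of 39234 genes, each symbol matched 1 row, and all 10 were among the 18188 genes with enough counts to be tested. RNA was sequenced from HK-2 cells, a human kidney line immortalized from proximal tubule epithelium, in 3 control libraries and 3 libraries with overexpression of USAG-1, a secreted antagonist of BMP and Wnt signalling encoded by SOSTDC1. All 6 libraries carry the genotype label WT, no age, time or dose is given in the labels, and the study's methods state that overexpression in cells was by transient transfection of plasmids. The labels do not say what the control cells received. The organism is labelled as mouse, although HK-2 is a human line and the table lists human gene identifiers. The labels do not say that the libraries of a group came from separate cultures, so p-values measure only the spread between these libraries, which may be technical.

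Human mitochondria carry their own small circular genome, which encodes subunits of the respiratory chain together with the ribosomal and transfer RNAs needed to translate them. Every protein that copies, transcribes, cleaves, stabilizes or degrades these RNAs is made from nuclear genes and imported. The single-subunit polymerase POLRMT starts transcription with TFAM and TFB2M and elongates with TEFM, and the long transcripts are then cut, polyadenylated by MTPAP, kept stable by the LRPPRC and SLIRP complex and degraded by PNPT1 with the helicase SUPV3L1. Proximal tubule cells rely heavily on oxidative phosphorylation, and so on this machinery.

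Total counts on genes were 41236194 to 48699471 per library, at which 3 counts, the limit that a count of 0 allows, correspond to 0.0616 to 0.0728 CPM, the count scaled to the size of the library. These limits cover counting error only. SOSTDC1 rose from 1.64 ± 0.243 to 101 ± 10.6 CPM (SD, n = 3 each), in the direction of the labels. Control replicate 3 stood apart from the other control libraries, with a chi-square per degree of freedom of 42.3 and 42.7 against them, where all other pairs within a group lay between 6.52 and 8.35. Log2 fold changes without it are therefore given for the 10 genes and for the other nuclear-encoded factors of mitochondrial DNA and RNA metabolism that passed the test. They are not given for the mitochondrially encoded RNAs, the markers or neighbouring genes. The proximal tubule marker LRP2 had no count in any library and CUBN and AQP1 were too low to be tested, while PAX8 and GGT1 were present and higher with overexpression (2 of 5 markers tested). The summed level of the proximal tubule markers was 470 to 500.3 CPM in control and 596 to 618 CPM in overexpressing libraries, and that of epithelial markers 1361 to 1791 and 1578 to 1675 CPM, with 0 of 4 past the test. Markers of T and NK cells were lower in USAG-1-overexpressing cells, with 13 of 14 past the test and a summed level of 105 to 123 CPM in control libraries against 30.1 to 37.5 CPM. IL7R was the exception, with a mean of 20.3 CPM in control and 24.4 CPM in overexpressing libraries (log2 fold change 0.27, adjusted p = 0.161, edgeR). Without IL7R, left out after its values were seen, the other 13, GNLY among them, summed to 83.1 to 104.9 CPM in control and 7.44 to 9.93 CPM in overexpressing libraries. None of the 14 was at 0 in all libraries, and CD3D and CD2 were at 0 in 1 overexpressing library each. The summed levels of B cell markers (2.53 to 4.07 CPM in control, 1.87 to 3.71 CPM with overexpression), myeloid markers (61.8 to 117 and 46.7 to 83.1 CPM) and platelet and erythroid markers (8.19 to 111 and 8.84 to 77.9 CPM) overlapped between the groups, and of these only LYZ and ITGAM, both myeloid, passed the test, lower with overexpression. The labels name only HK-2 cells, and the source of these marker counts was not tested. Whether RNA of such cells had a part in the results below was not tested either.

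Across the 10 genes the differences were small. LRPPRC was higher in USAG-1-overexpressing cells and the other 9 genes did not pass the threshold, an adjusted p under 0.05 by the edgeR quasi-likelihood test, adjusted by Benjamini-Hochberg over all genes tested. This is 1 of 10 genes, where 15.9% of all genes tested passed. At an unadjusted p under 0.05 there were 4 of the 10, namely LRPPRC, TFB2M, MTPAP and TEFM, where 30.5% of all genes tested were. The median log2 fold change of the 10 genes was 0.03, with 5 above and 5 below 0, against -0.02 over all genes tested. In size, their median was 0.12 on the log2 scale and that of all genes tested was 0.23. The genes tested were not matched to the 10 by level, and those with few counts carry more counting error. The median size was also 0.12 for the 66 other genes of mitochondrial DNA and RNA metabolism followed below, so it was not particular to these 10. In these bulk libraries, fewer cells that express a gene and less of its RNA per cell cannot be told apart. Levels are not compared between genes, because transcript lengths were not used here.

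**Figure D1:**
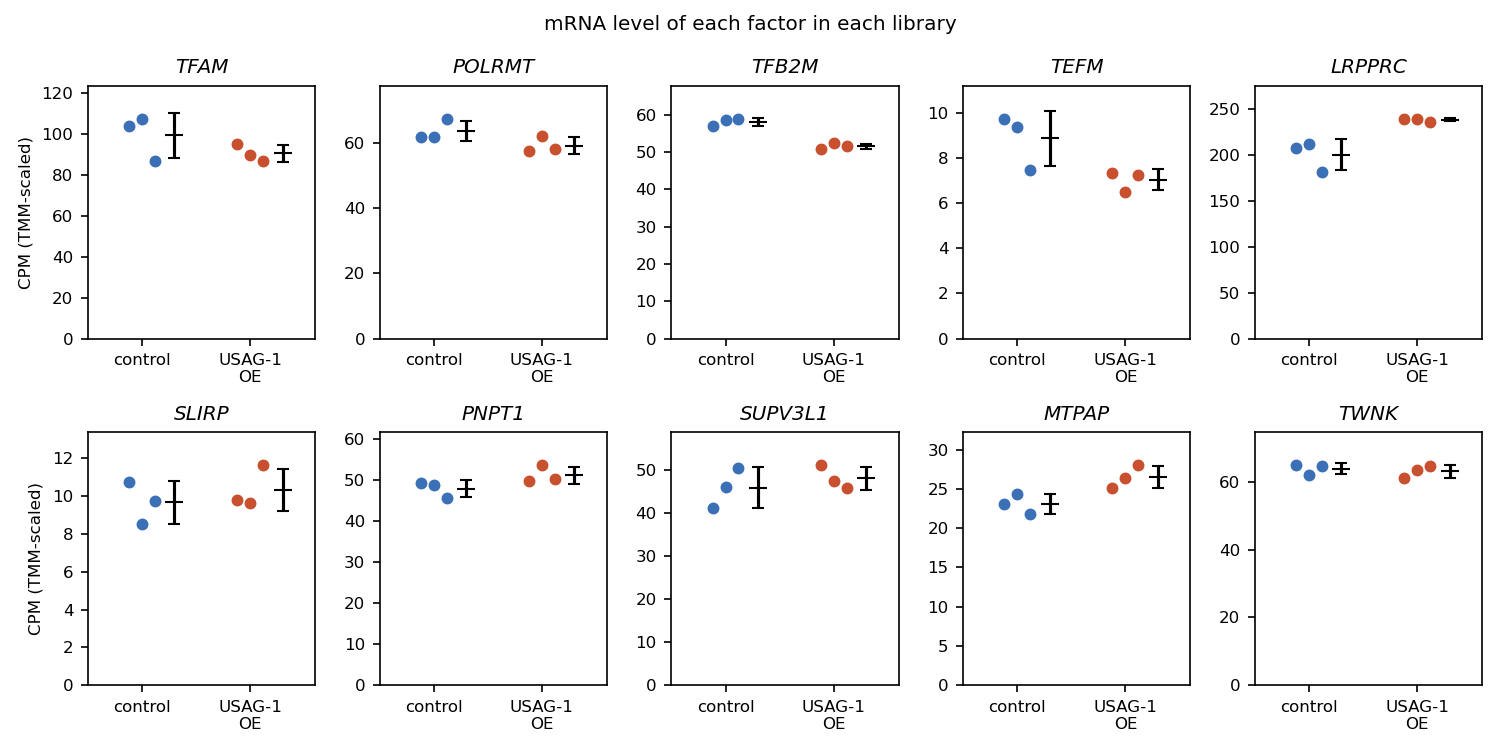
Level of each of the 10 mRNAs in each library, in TMM-scaled CPM on axes that start at 0. Points are libraries (blue, control; orange, USAG-1 overexpression, OE), and the black bar is the mean with the SD of 3 libraries. The groups are separate for TFB2M, TEFM, LRPPRC, PNPT1 and MTPAP and overlap for the other 5.

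None of the 4 factors of transcription initiation and elongation passed the test, and all 4 had negative log2 fold changes. TFAM (ENSG00000108064; chr10:58385345-58399220, plus strand, hg38), which packages mitochondrial DNA and bends the promoters, had 104, 107 and 86.9 CPM in control cells and 95.2, 89.7 and 86.7 CPM in USAG-1-overexpressing cells. Control replicate 3 lay with the overexpressing libraries and the groups overlapped. The log2 fold change of TFAM was -0.13, with a 95% interval from -0.34 to 0.07 (adjusted p = 0.347, edgeR). Without control replicate 3 it was -0.22 (adjusted p = 0.0102, edgeR), which passes the threshold, and without control replicate 2 it was -0.075 (adjusted p = 0.670, edgeR).

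POLRMT (ENSG00000099821; chr19:617221-633537, minus strand), the RNA polymerase itself, had 62.1, 62.1 and 67.5 CPM in control cells and 57.6, 62.2 and 58.2 CPM with USAG-1 overexpression. The groups overlapped through overexpression replicate 2. Its log2 fold change was -0.11, with an interval from -0.26 to 0.04 (adjusted p = 0.316, edgeR), and it was -0.058 without control replicate 3. A pseudogene, POLRMTP1, had counts of its own at 2.67 CPM in control cells and 2.69 CPM with overexpression, and how reads shared by both were counted is not stated, so the level of POLRMT is uncertain to that extent.

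TFB2M (ENSG00000162851; chr1:246540561-246566261, minus strand), which opens the promoter DNA for POLRMT, had 56.9, 58.4 and 58.8 CPM in control cells and 50.9, 52.3 and 51.5 CPM with USAG-1 overexpression. All 3 overexpressing libraries lay below all 3 control libraries. The log2 fold change was -0.17 (standard error 0.06, interval -0.30 to -0.05), with an unadjusted p of 0.014 and an adjusted p of 0.072 by edgeR. Its adjusted p fell under the threshold by DESeq2 (-0.18, adjusted p = 0.0466) and without control replicate 3 (-0.16, adjusted p = 0.0341, edgeR).

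TEFM (ENSG00000172171; chr17:30897336-30906238, minus strand), which lets the polymerase run past sites where it would stop, was among the members with the fewest counts. It had 406, 463 and 319 counts in control libraries and 337, 284 and 313 in overexpressing libraries. On the CPM scale this was 9.72, 9.38 and 7.48 against 7.34, 6.50 and 7.25, and the groups were separate only by the gap between control replicate 3 and overexpression replicate 1. TEFM had the largest fold change in size of the 10, -0.33 on the log2 scale, with an interval from -0.66 to -0.01 (adjusted p = 0.153, edgeR). Without control replicate 3 it was -0.44 (adjusted p = 0.0343, edgeR).

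Of the RNA-binding partners that protect mitochondrial mRNAs, LRPPRC passed the test and SLIRP did not, and the ratio of their counts, given further on, did not separate the groups. LRPPRC (ENSG00000138095; chr2:43886224-43996226, minus strand), a pentatricopeptide repeat protein that holds mitochondrial mRNAs in a stable, polyadenylated form, had 208, 211 and 181 CPM in control cells. It had 239, 239 and 236 CPM in USAG-1-overexpressing cells, all above the control libraries and closely spaced. LRPPRC rose 1.19-fold, a log2 fold change of 0.25 with an interval from 0.09 to 0.41 (adjusted p = 0.0429, edgeR). The value was positive in all 16 alternatives, from 0.17 to 0.29, but the call was lost in 10 of them, with adjusted p-values from 0.00283 to 0.139 over the 16. It was lost with each library other than control replicate 3 left out, while without control replicate 3 it held at 0.19 (adjusted p = 0.00283, edgeR). With all 6 libraries it was also lost in other edgeR fits. These were library sizes alone (0.26, adjusted p = 0.0659), no filter on low counts (0.25, adjusted p = 0.0808) and a replicate block (0.25, adjusted p = 0.0577). The others were an offset for the genomic span of genes, alone (0.17, adjusted p = 0.0745) or with the block (0.17, adjusted p = 0.136). LRPPRC has the longest span of the 10 at 110 kb, and whether span had a part was not tested.

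SLIRP (ENSG00000119705; chr14:77708071-77760952, plus strand), the small RNA-binding partner that stabilizes the LRPPRC protein, had 450, 421 and 415 counts in control libraries and 449, 420 and 502 in overexpressing libraries. Its CPM values were 10.8, 8.53 and 9.73 against 9.78, 9.62 and 11.6. The highest value was in overexpression replicate 3 and the lowest in control replicate 2, and the groups overlapped between them. The log2 fold change was 0.10 with an interval from -0.21 to 0.41 (adjusted p = 0.683, edgeR). It was 0.0063 without overexpression replicate 3, 0.18 without control replicate 1 and 0.11 without control replicate 3. As annotated in the table, SLIRP shares 43354 bases with SNW1 on the other strand and 119 bases with C14orf178 on its own strand. SNW1 rose by 0.26 on the log2 scale (adjusted p = 0.0194, edgeR). The labels describe strand-specific libraries. The sources used here do not state how reads in the shared stretches were assigned, so the level of SLIRP is uncertain.

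None of the 3 enzymes of tailing and decay passed the test, and all 3 had positive log2 fold changes. MTPAP (ENSG00000107951; chr10:30309801-30374441, minus strand), the poly(A) polymerase of mitochondria, had 23.1, 24.3 and 21.7 CPM in control cells and 25.1, 26.4 and 28.0 CPM with USAG-1 overexpression. All 3 overexpressing libraries lay above the control libraries. Its log2 fold change was 0.20 (interval 0.02 to 0.38), with an unadjusted p of 0.0346 and an adjusted p of 0.128 by edgeR, and it did not pass in any of the 16 alternatives. Without control replicate 3 it was 0.17.

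PNPT1 (ENSG00000138035; chr2:55634061-55693863, minus strand), the polynucleotide phosphorylase that degrades mitochondrial RNA, had 49.2, 48.7 and 45.5 CPM in control cells and 49.5, 53.4 and 50.2 CPM with overexpression. The groups were separate by less than 1 CPM. The log2 fold change was 0.09 with an interval from -0.05 to 0.24 (adjusted p = 0.363, edgeR), and it was 0.068 without control replicate 3. SUPV3L1 (ENSG00000156502; chr10:69180234-69209093, plus strand), the helicase that unwinds RNA for PNPT1, had 41.0, 45.9 and 50.4 CPM in control cells and 50.9, 47.3 and 45.6 CPM with overexpression, with the control values spread widely. Its log2 fold change was 0.07 with an interval from -0.13 to 0.27 (adjusted p = 0.659, edgeR), and it was -0.0052 without control replicate 1 and 0.15 without control replicate 3.

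TWNK (ENSG00000107815; chr10:100987367-100994401, plus strand), the helicase of mitochondrial DNA replication, showed the smallest fold change of the 10. It had 64.9, 62.1 and 64.8 CPM in control cells and 61.2, 63.5 and 64.9 CPM with USAG-1 overexpression, and the groups overlapped, with only overexpression replicate 1 below all control libraries. The log2 fold change was -0.02 with an interval from -0.15 to 0.12 (adjusted p = 0.881, edgeR), and it was -0.00037 without control replicate 3. TWNK shares 149 bases at its start with MRPL43 on the other strand, whose log2 fold change was -0.05 (adjusted p = 0.773, edgeR).

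The count of members that passed depended on single libraries. Without control replicate 3, 4 of the 10 genes passed, with TFAM, TFB2M and TEFM lower and LRPPRC higher, where 27.0% of all genes tested passed in that fit. DESeq2's Wald test on all 6 libraries called 2, LRPPRC and TFB2M, where it called 20.7% of all genes. With any other single library left out, edgeR called 0 of the 10, and 5.98% to 10.2% of all genes tested passed in these fits. At an unadjusted p under 0.05 (edgeR) there were 2 or 3 of the 10, beside 4363 to 5052 of the 18716 to 19008 genes tested. The levels of the groups did not overlap for 5 of the 10 genes, of which 3 were higher and 2 lower with USAG-1 overexpression, and among all genes tested 37.6% did not overlap.

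**Figure D2:**
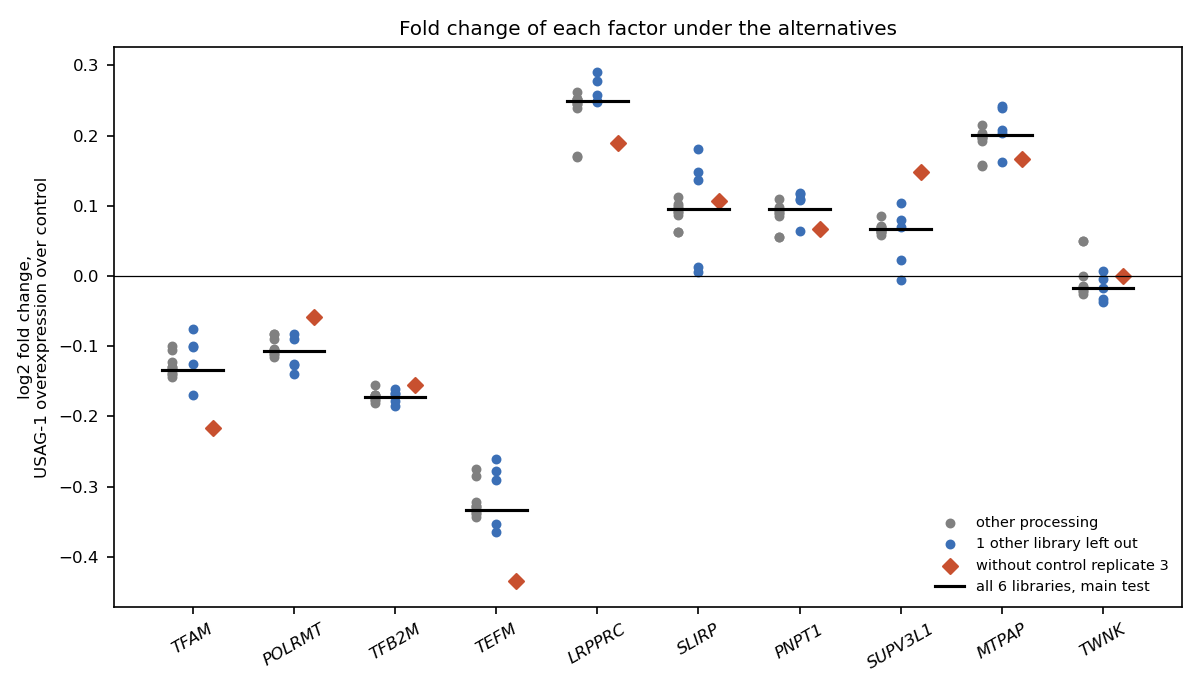
Log2 fold change of USAG-1 overexpression over control for each of the 10 genes, for all 6 libraries (black line), under other processing choices (grey), with 1 library other than control replicate 3 left out (blue) and without control replicate 3 (orange diamonds). TFAM moves from -0.13 to -0.22 and TEFM from -0.33 to -0.44 without control replicate 3, and only SUPV3L1 and TWNK, both near 0, have values on both sides of it.

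Partners of one complex or step were also compared by the ratio of their counts within each library, which does not depend on the scaling between libraries. The ratio of LRPPRC to SLIRP counts was 19.3, 24.8 and 18.6 in control libraries and 24.4, 24.8 and 20.3 in overexpressing libraries, a difference of 0.16 on the log2 scale (p = 0.3, two-sided exact permutation test, for which 0.1 is the smallest p with 3 libraries against 3). The ratio of PNPT1 to SUPV3L1 was 1.05 ± 0.149 and 1.07 ± 0.0837 (SD, n = 3 each; p = 0.9, exact permutation test). The ratio of POLRMT to TFAM was 0.651 ± 0.109 and 0.657 ± 0.0462 (SD, n = 3 each; p = 0.8, exact permutation test). The ratio of TFB2M to TFB1M, its paralog that methylates mitochondrial ribosomal RNA, was 5.51 ± 0.934 and 5.31 ± 0.565 (SD, n = 3 each; p = 0.8, exact permutation test). All 4 ratios overlapped between the groups, and the adjusted p over the 4 was 0.9 for each (Benjamini-Hochberg, exact permutation tests).

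The RNAs on which these factors act changed far more than the mRNAs of the factors. The amounts of the factors as proteins were not examined here. All 15 mitochondrially encoded mRNAs and ribosomal RNAs were lower with USAG-1 overexpression, with log2 fold changes from -2.43 to -1.46 and a median of -2.01, and MT-ND6, the mRNA of the light strand, changed by -2.05 (adjusted p = 3.98e-04, edgeR). MT-ND6 had 604, 569 and 370 CPM in control libraries, the lowest in control replicate 3, and 125, 126 and 121 CPM in overexpressing libraries. For the 10 factors the lowest bound of any 95% interval was -0.66, that of TEFM. The labels describe poly(A) selection, although they also mention ribosomal RNA removal. With poly(A) selection, the amount of these RNAs and the share of them with a poly(A) tail cannot be told apart. The T and NK cell markers given above were lower in the same libraries, and their part in this result was not tested. Together the 13 mitochondrial mRNAs had 226, 219.7 and 235 counts per count of LRPPRC in control libraries and 56.1, 55.0 and 56.8 in overexpressing libraries. Per count of each of the 10 factors the control libraries lay above the overexpressing libraries. The differences ran from -2.02 for LRPPRC to -1.44 for TEFM on the log2 scale (p = 0.1 for each of the 10, exact permutation test). That test can go no lower. All 10 ratios share the counts of the same 13 mitochondrial mRNAs, which were lower with overexpression, so they are not 10 separate results.

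**Figure D3:**
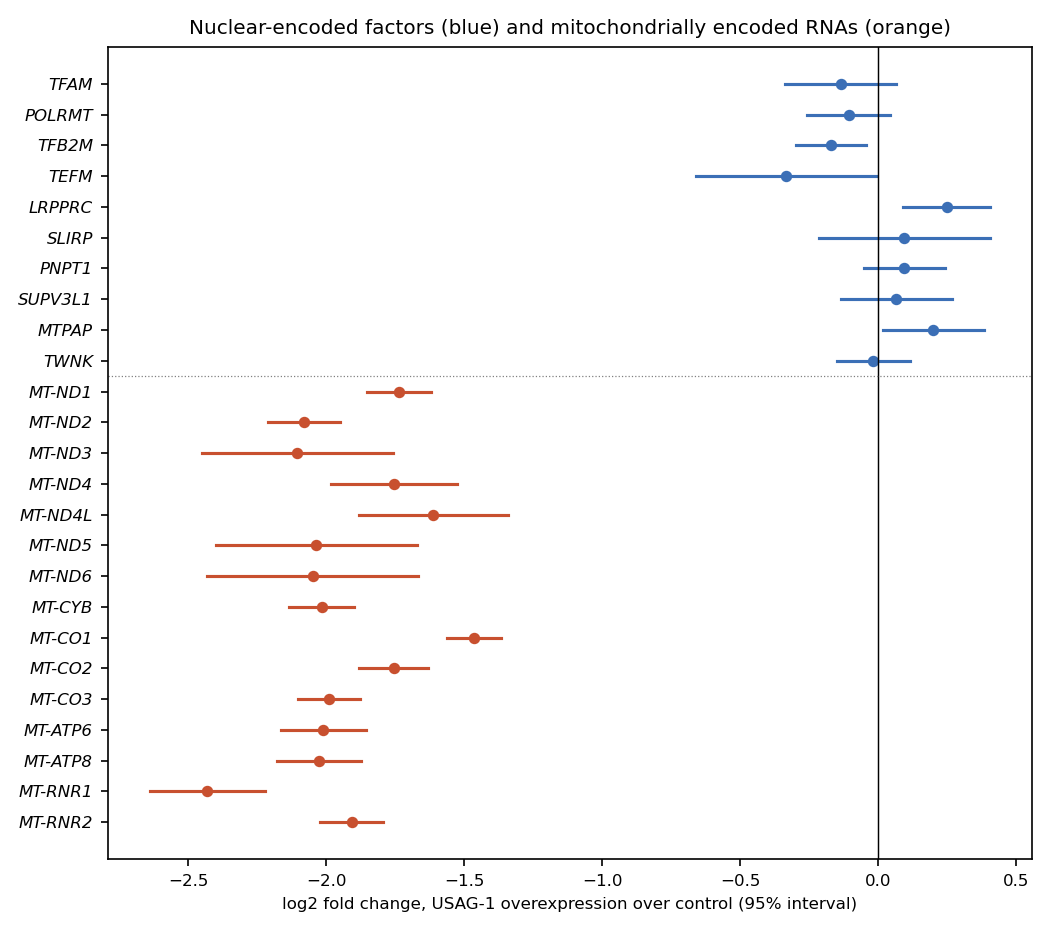
Log2 fold change of USAG-1 overexpression over control with its 95% interval from edgeR, for the 10 nuclear-encoded factors (blue) and 15 mitochondrially encoded RNAs (orange). The mRNAs of the factors lie between -0.33 and 0.25 and the mitochondrial RNAs between -2.43 and -1.46. No interval of one set reaches the other.

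**Figure D4:**
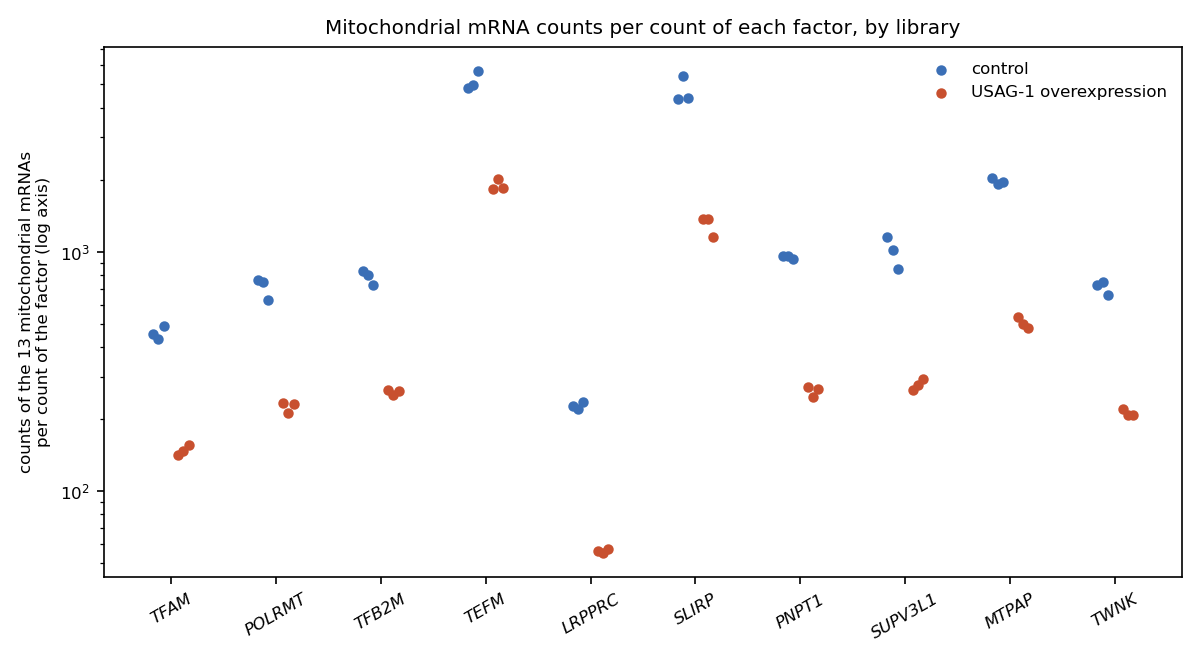
Counts of the 13 mitochondrial mRNAs per count of each factor in each library, on a log axis, for control (blue) and USAG-1-overexpressing (orange) cells. For every factor the 3 control libraries lie above the 3 overexpressing libraries, for LRPPRC at a mean of 227 against 56.0.

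To place these 10 genes, 66 other genes of mitochondrial DNA and RNA metabolism and its nuclear regulators were followed in the same test. Of the 66, 2 were higher and 5 were lower at an adjusted p under 0.05 (edgeR), where 15.9% of all genes tested passed, and 18 had an unadjusted p under 0.05, where 30.5% of all genes did. Their median log2 fold change was -0.01. Without control replicate 3, 17 of the 66 passed, beside 27.0% of all genes. Without control replicate 1 or 2 there were 4, beside 10.2% and 8.74% of all genes. Without USAG-1 overexpression replicate 2 or 3 there was 1, beside 5.98% and 7.09% of all genes, and without replicate 1 there were 0, beside 6.92%. In the fit without replicate 1, 9 of the 66 had an unadjusted p under 0.05 (edgeR), beside 4472 of the 18863 genes tested.

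Among 13 genes of mitochondrial DNA replication and the nucleoid, edgeR, DESeq2 and limma-voom called 0, beside 15.9%, 20.7% and 15.9% of all genes tested. They gave 3, 2 and 2 genes at an unadjusted p under 0.05, beside 5552, 5512 and 5668 of the 18188 genes tested. POLG, the catalytic subunit of the replicative polymerase, had 56.0 ± 1.25 CPM in control cells and 56.6 ± 0.209 CPM in USAG-1-overexpressing cells (SD, n = 3 each). SSBP1, the single-strand binding protein of the replication fork, had 80.8 ± 2.99 and 72.3 ± 2.14 CPM, a log2 fold change of -0.16 (adjusted p = 0.105, edgeR) with no overlap between groups. LONP1, the matrix protease that degrades TFAM protein, had a log2 fold change of 0.03 (adjusted p = 0.886, edgeR), which without control replicate 3 was 0.16 (adjusted p = 0.0325, edgeR).

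Of 6 further genes of transcription initiation and termination, MTERF4 was lower, where 15.9% of all genes tested passed in either direction (edgeR). MTERF4, a partner of the methyltransferase NSUN4 in ribosome assembly, had 27.1, 25.1 and 25.1 CPM in control cells and 17.2, 19.2 and 21.8 CPM with USAG-1 overexpression, without overlap. It fell by 0.41 on the log2 scale (adjusted p = 0.0293, edgeR). TFB1M had a log2 fold change of -0.13 (adjusted p = 0.600, edgeR). Of 8 genes that cut and finish the RNA ends, among them ELAC2 and TRMT10C, none was called by edgeR, DESeq2 or limma-voom. These tools called 15.9%, 20.7% and 15.9% of all genes tested. At an unadjusted p under 0.05 there were 0 of the 8, beside 5552, 5512 and 5668 of the 18188 genes tested.

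Of 13 genes of RNA stability, granules and decay, FASTK and TBRG4 were lower and LACTB2 was higher. Of all genes tested, 15.9% passed in either direction (edgeR). FASTK, needed for the maturation of the MT-ND6 mRNA, had 32.0, 29.2 and 34.4 CPM in control cells and 24.6, 25.8 and 24.6 CPM in USAG-1-overexpressing cells. It fell by 0.35 on the log2 scale (adjusted p = 0.0226, edgeR). TBRG4, also named FASTKD4 and known to stabilize a subset of mitochondrial mRNAs, went from 93.4, 96.7 and 119 to 73.1, 85.4 and 81.3 CPM, with a log2 fold change of -0.37 (adjusted p = 0.0482, edgeR). The highest TBRG4 value was in control replicate 3, without which the fold change was -0.24 (adjusted p = 0.0221, edgeR). LACTB2, a mitochondrial ribonuclease, had 59.8, 60.6 and 49.7 CPM in control cells and 77.9, 74.5 and 74.1 CPM with USAG-1 overexpression, and rose by 0.41 on the log2 scale (adjusted p = 0.0146, edgeR). GRSF1, a protein of the RNA granules, had a log2 fold change of -0.07 (adjusted p = 0.414, edgeR).

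Of 17 genes of RNA modification, 2 were lower, where 15.9% of all genes tested passed in either direction (edgeR). Both encode enzymes that modify the large ribosomal RNA. RPUSD4, a pseudouridine synthase, had 25.7, 27.2 and 29.4 CPM in control cells and 19.8, 21.7 and 22.3 CPM with USAG-1 overexpression, and fell by 0.37 on the log2 scale (adjusted p = 0.023, edgeR). MRM1, a ribose methyltransferase, had 7.43, 5.65 and 6.00 CPM against 3.48, 4.08 and 4.19 CPM, and fell by 0.70 on the log2 scale (adjusted p = 0.0254, edgeR). For both genes every overexpressing library lay below every control library.

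Of 9 nuclear regulators, PPARGC1A was higher, where 15.9% of all genes tested passed in either direction (edgeR). PPARGC1A encodes PGC-1alpha, the coactivator of mitochondrial biogenesis that acts with NRF1 and the GABP factors on genes such as TFAM and TFB2M. It had 13.9, 16.3 and 11.5 CPM in control cells and 22.6, 19.7 and 22.5 CPM in USAG-1-overexpressing cells, without overlap. The log2 fold change of PPARGC1A was 0.64, with a standard error of 0.13 (adjusted p = 0.0165, edgeR). Its related coactivator PPRC1 had a log2 fold change of 0.12 (adjusted p = 0.254, edgeR). NRF1 had one of -0.05 (adjusted p = 0.788, edgeR), which was 0.045 without control replicate 3.

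**Figure D5:**
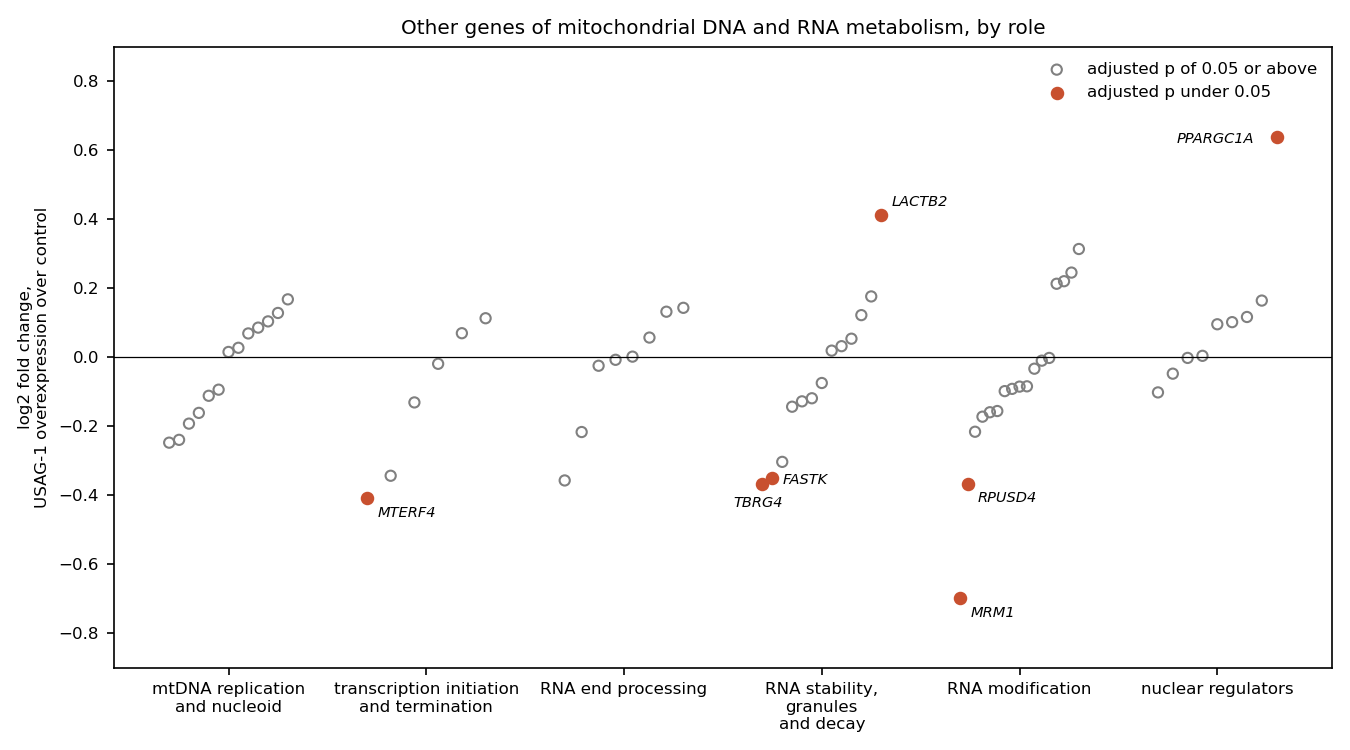
Log2 fold change of USAG-1 overexpression over control for 66 other genes of mitochondrial DNA and RNA metabolism, 1 point per gene, in 6 groups by role and ordered by value within each. Filled points passed an adjusted p of 0.05 with edgeR, 2 above 0 (PPARGC1A and LACTB2) and 5 below it (MTERF4, FASTK, TBRG4, RPUSD4 and MRM1).

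The calls for these 7 genes were sensitive to which libraries entered. Each of the 7 kept its direction in the 16 alternatives. The 2 risen genes lost the call only with an overexpressing library left out: PPARGC1A without replicate 1 (0.61) or replicate 3 (0.61), and LACTB2 without replicate 1 (0.39), replicate 2 (0.43) or replicate 3 (0.43) on the log2 scale. The 5 fallen genes lost it in 5 to 8 of the 16 alternatives each. None of the 7 lost it without control replicate 3, where the log2 fold changes were 0.52 for PPARGC1A, 0.33 for LACTB2, -0.42 for MTERF4, -0.28 for FASTK, -0.24 for TBRG4, -0.31 for RPUSD4 and -0.73 for MRM1.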

How the data were processed

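Counts per gene were deposited for 6 libraries of HK-2 cells, 3 control and 3 with USAG-1 overexpression. Per the labels, RNA was poly(A)-selected and strand-specific libraries were read as pairs, although ribosomal RNA removal is also mentioned there. The authors deposited whole-number counts without normalization under a file name that speaks of FPKM. The submitters' processing notes name cutadapt 1.9, FastQC and hg38, and the aligner, counter and annotation are not given in the sources used here.

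Genes were filtered with filterByExpr, scaled by TMM and tested with the quasi-likelihood test of edgeR 4.0.16 in R 4.3.3, without a replicate block, with Benjamini-Hochberg adjustment over all genes tested and a threshold of 0.05. DESeq2 1.42.0, the tool of the study's methods, and limma-voom (limma 3.58.1) served as alternatives. CPM values use TMM-scaled library sizes. Standard errors and 95% intervals of log2 fold changes were derived from the F statistic of edgeR and its degrees of freedom. The other alternatives were other scalings (DESeq2's size factors, library totals alone, library sizes without mitochondrially encoded genes), another filter (none, or a minimum of 10 counts in all libraries), a replicate block, an offset for genomic span with and without the block, and each library left out in turn. The code was tested on simulated data.

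The members, the other lists and the markers were chosen with earlier results of these data known and typed from general knowledge. The genes named are the 10 members, every other factor with an adjusted p under 0.05, and TFB1M, POLG, SSBP1, GRSF1, LONP1, NRF1, PPARGC1A and PPRC1 whatever their values. Genes such as ELAC2, TRMT10C and the overlapping neighbours are named only to describe their group or member. Sequences are not shown, since the reference at hand was of mouse.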

Additional observations from a re-analysis of the deposited data

How the results depend on the processing

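Of the 160 values of the 10 genes under 16 alternatives, 142 kept their direction and their side of the threshold, 10 lost the call (all LRPPRC), 4 gained one and 4 changed sign. The signs that changed were those of SUPV3L1 without control replicate 1 (-0.0052, with a range to 0.15 over single libraries left out) and of TWNK with the genomic span offset, alone (0.050) or with the replicate block (0.050), and without USAG-1 overexpression replicate 1 (0.0077, with a range from -0.038). Of 224 values of the 14 other genes named, 182 kept both, 38 lost the call and 1 gained it, while LONP1 changed sign without control replicate 1 (-0.052) or 2 (-0.010), with a range to 0.16, and NRF1 without control replicate 3 (0.045), with a range from -0.11.

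The number of the 10 genes past the threshold was 1, beside 15.9% of all genes tested. It became 0 with library sizes alone (16.1% of all genes), without the filter on low counts (6.26%) and with the replicate block (13.1%). It was also 0 with the genomic span offset alone (14.8%) or with the block (11.4%), and 2 with DESeq2's Wald test (20.7%). In these edgeR fits with 0, between 2 and 4 of the genes had an unadjusted p under 0.05, beside 5178 to 6010 of all genes. The genes tested numbered 18188 in these fits, and 32507 without the filter. Leaving out 1 library gave 0 to 4, beside 5.98% to 27.0% of all genes tested. Of the 66 other genes, 7 passed, and 4 with the replicate block and 3 with the genomic span offset and the block. With a library left out, 0 to 17 of the 66 passed, beside the same 5.98% to 27.0% of all genes. Of all genes, 2884 passed, and 1137 (without USAG-1 overexpression replicate 2) to 5091 (without control replicate 3) with a library left out. Leaving out a library also leaves fewer samples; why the choice of library mattered was not tested.

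The labels do not say whether same-numbered libraries belong together. Same-numbered libraries had correlations of 0.07, -0.05 and 0.04 between their deviations from the group means. Not every library correlated best with its own number. With so few libraries, and control replicate 3 apart from the other controls, these values cannot decide whether the libraries were paired. The block called 2381 genes in all.

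With a library left out, the log2 difference of the ratio of LRPPRC to SLIRP ranged from 0.08 to 0.28, of PNPT1 to SUPV3L1 from -0.08 to 0.12, of POLRMT to TFAM from -0.06 to 0.16 and of TFB2M to TFB1M from -0.12 to 0.09. TEFM and SLIRP, with 284 to 502 counts per library, had the widest intervals of the 10 genes.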
